A study of Mus musculus with 8 samples.

Results

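The 9 genes described here encode enzymes that pass glutamate carbon and nitrogen onwards in the cell or build and recycle glutathione: Glud1, Got1, Got2, Gpt2, Idh1, Gclc, Gclm, Gss and Gsr. They were taken by gene symbol from the 13704 genes listed in either of the 2 count tables, and all 9 members of the group are listed. Messenger RNA was sequenced from Th17 cells of 2 genotypes, with 1 library each. The wild-type (WT) library came from C57BL/6 mice. The knockout (KO) library came from TRIM28fl/flxCD4cre mice, in which Cre is driven by the Cd4 promoter, so that Trim28 is lost from T cells as they develop and not from Th17 cells alone. Whether the WT mice carried Cre or floxed alleles is not given in the sources used here, and neither are the age, the sex or the number of mice. In both genotypes, sorted naive T cells (CD4+CD25-CD62Lhi CD44low) were activated with anti-CD3 and anti-CD28 and cultured for 3 days in TGF-β (0.5 ng/ml) plus IL-6 (20 ng/ml), then re-stimulated with anti-CD3.

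Glutamine taken up by an activated T cell is turned into glutamate. The amino group of glutamate is then removed by glutamate dehydrogenase (GLUD1) or handed to another acid by aminotransferases (GOT1 in the cytosol, GOT2 and GPT2 in mitochondria), which leaves 2-oxoglutarate for the citric acid cycle and for dioxygenases that act on chromatin. In Th17 cells GOT1 is known as a source of the 2-oxoglutarate that is reduced to 2-hydroxyglutarate, a metabolite that favours methylation of the Foxp3 locus. Glutamate also enters glutathione: glutamate-cysteine ligase (a catalytic subunit, GCLC, and a modifier subunit, GCLM) makes the rate-limiting step, glutathione synthetase (GSS) adds glycine, and glutathione reductase (GSR) returns oxidized glutathione to its reduced form with NADPH. T cells need glutathione to buffer the oxidants of rapid growth.

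In units of 1000000, the tables summed to 6.65 reads for WT, on 13078 genes, and to 6.19 reads for KO, on 12754 genes. The deleted gene was checked first. Trim28 had 4485 WT reads against 180 KO reads, which is 674 and 29.1 CPM (reads scaled to a library of 1000000). Over 5 T-cell markers the sum was 3497 CPM in WT against 3027 in KO, with Trac at 0 in both. The markers did not move together. Cd28 (1338 CPM in WT and 839 in KO) and Cd4 (1189 and 1067) were lower in the KO library. Cd3e (663 and 773) and Cd3g (308 and 348) were higher. Of the Th17 markers, Il17a (2226 and 381 reads), Il17f (3143 and 345) and Il23r (195 and 107) were lower in the KO library, and Ccr6 had 5 and 7 reads. Markers of other T cells summed to 19.4 CPM in WT and 22.2 CPM in KO, with Ifng at 0 in both. B-cell markers summed to 11.3 CPM in WT and 7.11 CPM in KO, and in the KO library Ms4a1 and Cd79b had 2 reads each, under the floor of 3 reads. Myeloid markers summed to 3.46 and 3.40 CPM, with Lyz2, Csf1r and Adgre1 at 0 in both. NK-cell and red-cell markers were at 0 in both. A marker at 0 in both is listed for neither library. Whether such a gene had no reads or stands under another symbol was not checked. In bulk RNA, fewer cells of a type and less RNA per cell cannot be told apart.

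Each gene is described by its reads in each library and its log2 fold change. The log2 fold change is KO over WT after scaling to the library totals, with 0.5 added to each count. Its exact (Clopper-Pearson) 95% interval covers counting error only, since with 1 library per genotype there is no replicate check and no p-value. A difference is called past the counting error where this interval lies wholly on one side of 0. Only genes whose reads summed to 10 or more were compared, which left 10881 genes and 8 of the 9 members, all except Idh1.

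Promoter sequences were read to show what the upstream ends of these genes hold. RefSeq (GRCm38.p6) gave windows of 300 bases, from 250 bases before the start to 50 bases after it, for 7 of the 9 members (8 windows, 2 for Idh1). Gclc and Gsr had no entry. Gclm is shown because its window is the only 1 of the 8 with the antioxidant response element, TGACNNNGC, the known recognition sequence of the oxidant-responsive factor NRF2. Glud1 and Got2 are shown because they gave the most reads of the 9 and differ in these letters. Capitals mark the antioxidant response element in Gclm (chr3:122245307-122245606, plus strand), the GC boxes (GGGCGG, either strand) in Glud1 (chr14:34310477-34310776, plus strand) and the TATAAA match in Got2 (chr8:95888352-95888651, minus strand).
Gclm: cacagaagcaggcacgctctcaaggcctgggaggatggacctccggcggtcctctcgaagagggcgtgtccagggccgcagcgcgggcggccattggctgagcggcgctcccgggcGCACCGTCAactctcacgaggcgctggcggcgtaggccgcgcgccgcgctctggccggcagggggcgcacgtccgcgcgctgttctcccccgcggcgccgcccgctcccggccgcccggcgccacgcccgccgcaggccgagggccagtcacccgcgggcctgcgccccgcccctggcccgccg
Glud1: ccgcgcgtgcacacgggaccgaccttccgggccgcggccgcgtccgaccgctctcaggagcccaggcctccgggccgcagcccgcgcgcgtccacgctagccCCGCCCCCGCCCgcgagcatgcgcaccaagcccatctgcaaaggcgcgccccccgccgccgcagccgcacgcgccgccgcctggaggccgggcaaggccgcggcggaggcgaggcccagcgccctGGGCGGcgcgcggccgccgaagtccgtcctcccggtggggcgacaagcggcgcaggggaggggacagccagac
Got2: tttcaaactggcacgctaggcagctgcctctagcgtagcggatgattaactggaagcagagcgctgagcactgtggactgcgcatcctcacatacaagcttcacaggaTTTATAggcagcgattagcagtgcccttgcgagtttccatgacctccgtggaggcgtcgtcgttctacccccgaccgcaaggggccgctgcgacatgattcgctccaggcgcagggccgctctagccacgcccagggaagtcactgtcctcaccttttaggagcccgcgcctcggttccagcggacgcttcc

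The match in Gclm lies 134 to 126 bases before the start of its curated transcript (122245557), which is downstream of the start of the whole gene in RefSeq (122245487), and reads TGACGGTGC on the minus strand. Searched on both strands, this element was found in 12.4% of 32851 promoter windows of the same length. GC boxes, which overlap the antioxidant element in none of its letters here, were found in 5 of the 7 members with a window and in 35.7% of all windows: 4 in Gclm, 3 in Glud1 (a pair of them adjoining), 2 in Gpt2, 1 in Gss, and 2 and 1 in the windows of Idh1. Got1 and Got2, the 2 aspartate aminotransferases, had none. Only the Got2 window held TATAAA, 142 to 137 bases before the start and on the opposite strand, against 13.6% of all windows. The Gclm and Glud1 windows were 79.7% and 81.0% G and C, against 57.3% to 63.7% in the other 6 windows and a median of 52.7% over all windows. A match is a description of letters and not evidence that a factor binds there.

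None of the 8 members compared differed by 2-fold or by 1.5-fold between the libraries. Among all genes, 7.94% were at least 2-fold lower in the KO library and 3.75% at least 2-fold higher. At 1.5-fold, the shares were 17.7% lower and 10.8% higher. Got2, Gclc and Gsr were higher in the KO library past the counting error, no member was lower past it, and the intervals of Glud1, Got1, Gclm, Gss and Gpt2 included 0. For all genes, 23.5% were higher past the counting error and 25.0% lower, so at this depth 3 of 8 genes is not far from the background share. The median log2 fold change of the 8 members was 0.22, against -0.02 over all genes compared.

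**Figure D1:**
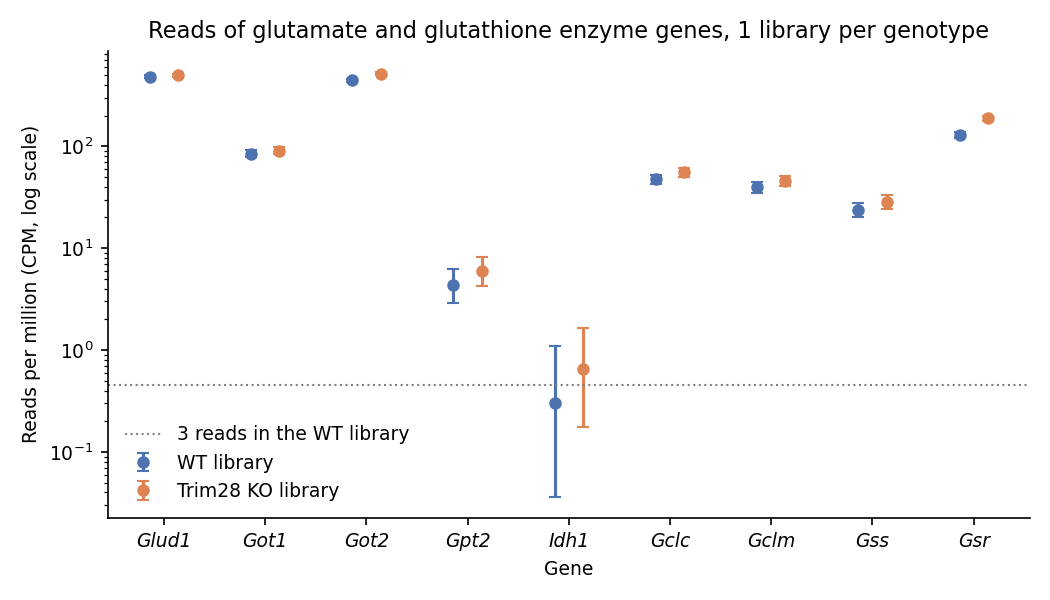
CPM (log axis) of the 9 genes in the WT library (blue) and the Trim28 KO library (orange), 1 library each. Bars are exact Poisson 95% intervals and the dotted line is the level of 3 reads in the WT library. Glud1 and Got2 lie near 500, Gsr shows the clearest gap between the libraries, and the bars of Idh1 cross the dotted line.

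Glud1 (chr14:34310727-34345033, 13 exons), the mitochondrial glutamate dehydrogenase, drew 3205 WT reads and 3076 KO reads, or 482 and 497 CPM. The log2 fold change was 0.05 (95% interval -0.03 to 0.12). This was the smallest value of the 8, and its interval was also among the narrowest.

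Got1 (chr19:43499752-43524605, 9 exons), the cytosolic aspartate aminotransferase, drew 564 WT reads and 561 KO reads. Scaled to the totals, these were 84.8 and 90.7 CPM, with a log2 fold change of 0.10 (-0.07 to 0.27). The 2 libraries did not differ beyond counting error for this enzyme. Got2 (chr8:95864133-95888401, 10 exons), its mitochondrial partner in the malate-aspartate shuttle, had 2960 and 3201 reads, or 445 and 518 CPM. Its log2 fold change was 0.22 (0.14 to 0.29), a small difference past the counting error. The read ratio of Got2 to Got1 was 5.25 in WT and 5.71 in KO, a change of 1.09-fold whose interval (0.955 to 1.24) included 1. The 2 aminotransferases thus did not separate from each other beyond counting error, although only Got2 passed it on its own. Glud1 and Got2 did shift against each other: the read ratio of Glud1 to Got2 was 1.08 in WT and 0.961 in KO, a change to 0.888 (0.827 to 0.953). Both genes have a processed copy elsewhere in the genome in RefSeq, and how reads that fit a gene and such a copy were treated is not given in the sources used here.

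Gpt2 (chr8:85492576-85528902, 12 exons), the mitochondrial alanine aminotransferase, was a low gene with 29 WT reads and 37 KO reads, or 4.36 and 5.98 CPM. The log2 fold change of 0.45 had an interval from -0.28 to 1.21, which reached past 2-fold, so a difference of that size was not resolvable at this depth. Summed over Glud1, Got1, Got2 and Gpt2, the enzymes that turn glutamate into 2-oxoglutarate had 6758 reads in WT and 6875 in KO, a log2 ratio of 0.13 (0.08 to 0.18). Most of those reads belonged to Glud1 and Got2.

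Idh1 (chr1:65158616-65186479, 9 exons), the cytosolic NADP-dependent isocitrate dehydrogenase, which converts isocitrate to 2-oxoglutarate while making NADPH, had 2 reads in WT and 4 in KO. The KO to WT ratio of its CPM was 2.15 with a counting interval from 0.308 to 23.8, which holds no direction. Idh1 has 2 curated RefSeq transcripts, and 328 of its 2438 exon bases (13.5%) belong to 1 transcript only. Gclc (5.62%) and Gss (6.88%) are the other members with 2 curated transcripts, and had well over 100 reads in each library. Slc25a13 (0.0961%), from the shuttle list below, also has 2 and had 7 and 6 reads. Genes with 1 curated transcript had a median of 132 reads in the WT library (7624 genes), and those with 2 or more had 51 where under 10% of bases were private (3703 genes), 50 at 10 to 50%, the class of Idh1 (1872 genes), and 97.5 above that (418 genes). The part of transcript structure in the level of Idh1 was not tested. A low read count for Idh1 is a fact of these tables and not a measure of its protein. How a read was judged unique is not given in the sources used here, so the count may not measure the Idh1 message well either.

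Gclc (chr9:77754535-77794489, 16 or 17 exons by transcript), the catalytic subunit, drew 314 WT reads and 342 KO reads, or 47.2 and 55.3 CPM. The log2 fold change was 0.23 (0.00256 to 0.45), so its lower bound only just cleared 0. Gclm (chr3:122245487-122267215, 7 exons), the modifier subunit, had 264 and 283 reads, or 39.7 and 45.8 CPM, with a log2 fold change of 0.20 (-0.04 to 0.45). The subunits kept a like balance: 1.19 Gclc reads per Gclm read in WT and 1.21 in KO, a change of 1.02-fold (0.804 to 1.28). Although only Gclc cleared 0 on its own, the subunits did not differ from each other beyond counting error.

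Gss (chr2:155563181-155592810, 12 or 13 exons by transcript), the second enzyme of the synthesis, drew 157 WT reads and 176 KO reads, or 23.6 and 28.5 CPM. Its log2 fold change of 0.27 had an interval of -0.05 to 0.59. Summed over Gclc, Gclm and Gss, the synthesis genes had 735 reads in WT and 801 in KO, a log2 ratio of 0.23 (0.08 to 0.38), which is past the counting error for the sum though for only Gclc of the 3 genes.

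Gsr (chr8:33653238-33698162, 13 exons), glutathione reductase, showed the largest difference of the members past the counting error. It drew 856 WT reads and 1159 KO reads, or 129 and 187 CPM, a ratio of 1.46 and a log2 fold change of 0.54 (0.41 to 0.67). Of all genes compared, 87.6% had a lower log2 fold change than Gsr. Against the other members within the same library, Gsr was higher in KO by 1.24-fold relative to Gclc (1.04 to 1.49), by 1.26-fold relative to Gclm (1.04 to 1.53), by 1.36-fold relative to Got1 (1.17 to 1.58), by 1.25-fold relative to Got2 (1.13 to 1.39) and by 1.41-fold relative to Glud1 (1.27 to 1.56). Of the ratios computed, only that to Gss, 1.21-fold (0.950 to 1.53), included 1. None was computed to Gpt2 or Idh1, which had few reads. These ratios do not depend on the library totals, but they hold no correction for transcript length. After the length correction given below, Gsr and Gclm were both at a log2 value of 0.49, the latter dependent on its annotated length. Gpt2 was at 0.54, Gclc at 0.29, Got2 at 0.15, Gss at 0.13, Glud1 at 0.10 and Got1 at -0.03.

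With 1 library each, the spread between cultures is unknown, so intervals were also computed for an assumed coefficient of variation between libraries. At 0.1, Gsr was the only member whose interval stayed above 0 (0.12 to 0.96), where 10.8% of all genes were higher and 14.7% lower. At 0.2 the interval of Gsr was -0.27 to 1.35 and no member stayed on one side of 0.

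**Figure D2:**
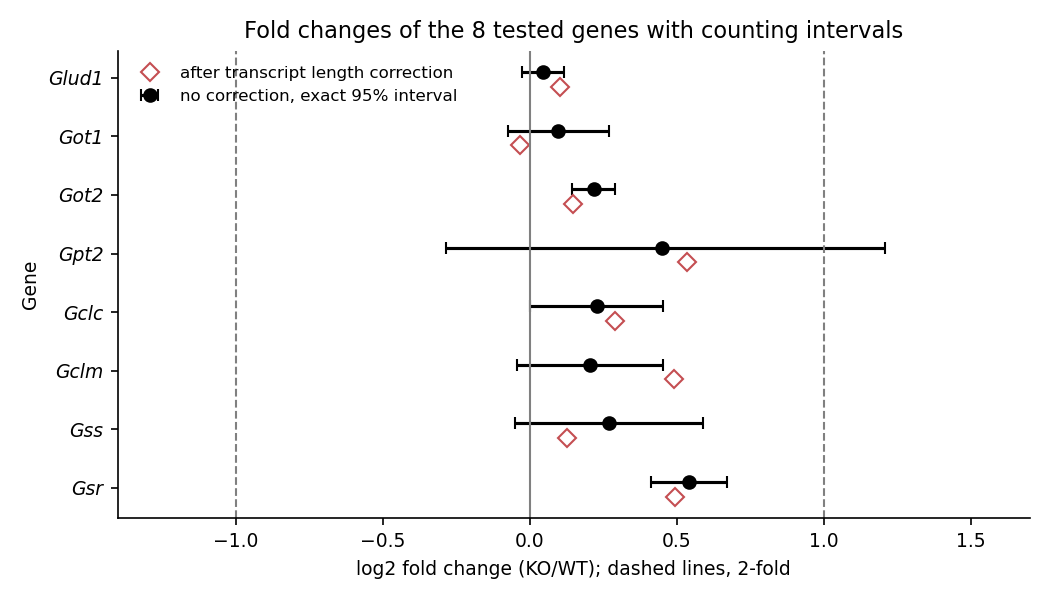
Log2 fold changes (KO over WT) of the 8 genes compared, with exact 95% intervals that cover counting error (black) and the values after correction for transcript length (red diamonds). Dashed lines mark 2-fold. The intervals of Got2, Gclc and Gsr lie above 0, that of Gpt2 is the widest, and no gene reaches a 2-fold difference.

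**Figure D3:**
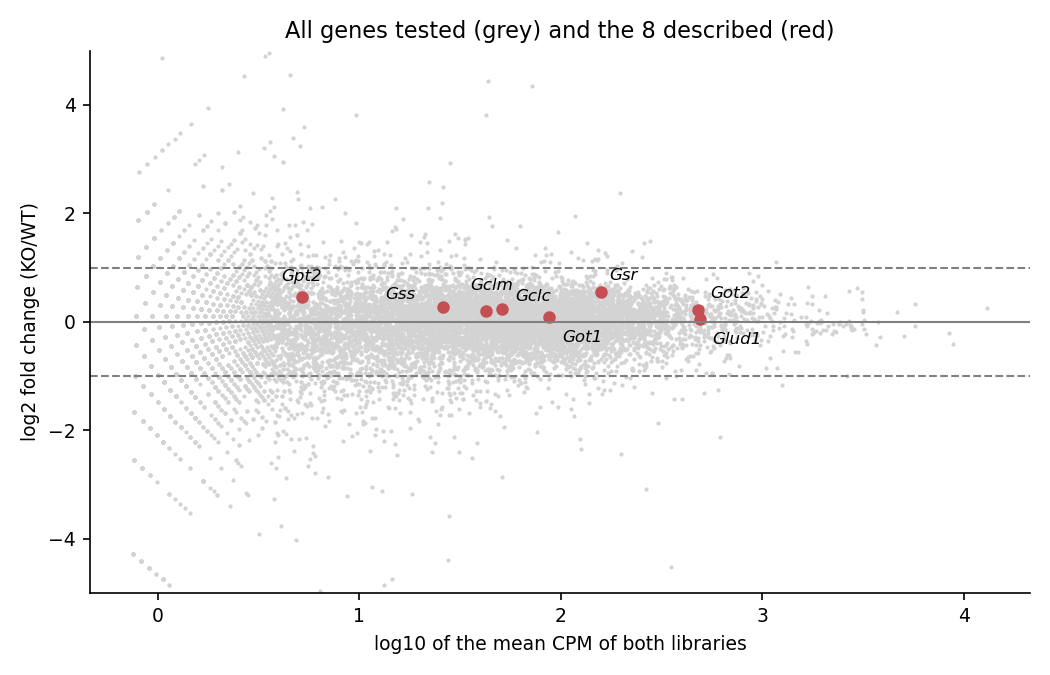
Log2 fold change (KO over WT) against the log10 mean CPM of both libraries for the 10881 genes compared (grey) and the 8 members among them (red). The 16 genes beyond a log2 fold change of 5 in either direction lie outside the axis. All 8 red points lie between 0 and 1 and inside the grey cloud.

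Fold changes in these libraries varied with transcript length (Spearman's rho -0.39 across 10792 genes, which are not independent replicates): longer transcripts tended to lower values in the KO library. A loess curve of the fold change against length was therefore subtracted as an alternative. Gsr (0.49), Got2 (0.15) and Gclc (0.29) stayed past the counting error, and Glud1 (0.10) and Gclm (0.49) came past it as well, so that 5 of 8 members were higher and 0 lower, against 23.3% and 20.2% of all genes. Got1 changed sign within its counting error, from 0.10 to -0.03. The value of Gclm rests on its annotation: the longest coding transcript in GENCODE has 5589 bases and the curated RefSeq transcript 2072 bases. With RefSeq lengths, an alternative chosen after seeing this difference, Gclm was at 0.07 and 4 members were higher past the counting error. Of all 10822 genes with such a length, 2484 were higher and 2163 lower past it. What makes the fold change follow length was not tested.

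**Figure D4:**
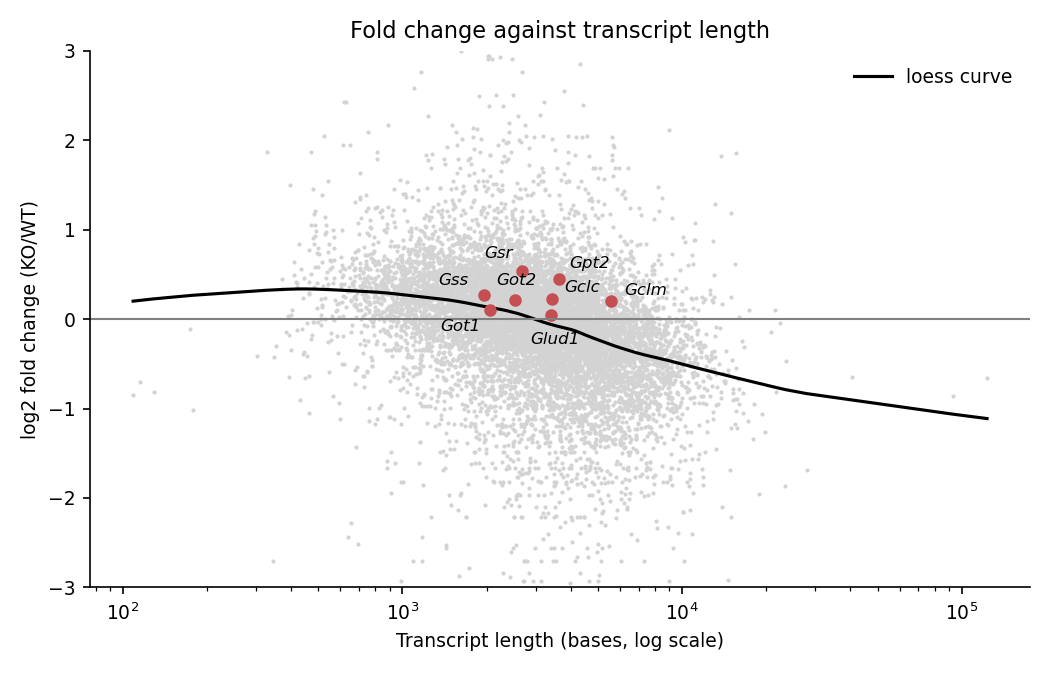
Log2 fold change (KO over WT) against transcript length (bases, log axis) for all genes compared with a length (grey), with the loess curve (black) and the 8 members (red). The 97 genes beyond a log2 fold change of 3 in either direction lie outside the axis. The curve falls from above 0 for short transcripts to below 0 for long ones, and Gsr, Gpt2 and Gclm lie the farthest above it.

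Levels were compared between genes per length, as CPM per 1000 bases (RPKM). In the WT library Got2 was at 176 RPKM (170 to 182), Glud1 at 142 (137 to 147), Gsr at 48.2 (45.0 to 51.5), Got1 at 41.2 (37.9 to 44.8), Gclc at 13.8 (12.3 to 15.4), Gss at 12.0 (10.2 to 14.1), Gclm at 7.10 (6.27 to 8.01), Gpt2 at 1.20 (0.803 to 1.72) and Idh1 at 0.131 (0.0158 to 0.472). The order was the same in the KO library, where Got2 was at 205, Glud1 at 147, Gsr at 70.1, Got1 at 44.1, Gclc at 16.2, Gss at 14.5, Gclm at 8.19, Gpt2 at 1.64 and Idh1 at 0.281 RPKM. The intervals of the neighbours Gclc and Gss overlapped in both libraries, and those of the other neighbours did not. The place of Gclm again depends on its length: with RefSeq exon lengths it was at 19.2 RPKM in WT and 22.1 in KO, above Gclc (13.0 and 15.2) and Gss, and the order of the other genes was unchanged. Got2 messages thus outnumbered those of Got1 per length in both libraries, by values of 176 to 41.2 RPKM in WT.

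All 9 members together drew 8351 WT reads and 8839 KO reads, or 1256 and 1429 CPM, a log2 ratio of 0.19 (0.14 to 0.23).

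The neighbouring steps of the pathway were described with 9 lists holding 95 other genes, of which 79 were compared. Over all of these, 2 were at least 2-fold lower and 5 at least 2-fold higher, against background shares of 7.94% and 3.75%. Past the counting error, 11 were lower and 29 higher, against 25.0% and 23.5% of all genes. The median log2 fold change was 0.10. With the length correction 10 were lower and 31 higher, with a median of 0.13. Genes named from each list are those past 2-fold, the one with the most reads and those with the lowest and highest fold change, unless stated.

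Upstream, glutamine entry and deamidation (6 of 8 genes compared) had a median of -0.03, with 2 lower and 1 higher past the counting error. The median turned to 0.10 after the length correction, with 2 lower and 2 higher. Slc1a5, a glutamine and neutral amino acid carrier, had 3893 reads in WT and 1344 in KO, a log2 fold change of -1.43 (-1.52 to -1.34). It was the only gene of this list past 2-fold. Slc1a5 (chr7:16781334-16798274) lies on the same chromosome as the deleted gene Trim28 (chr7:13024152-13031032). The part of that position in this difference was not tested. Slc7a5, the light chain of a large neutral amino acid exchanger, was higher at 0.29 (0.19 to 0.40).

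Other glutamate and glutamine enzymes (13 of 16 compared) had a median of 0.01, with 4 lower and 2 higher past the counting error and none past 2-fold. After the length correction the balance turned, with a median of 0.20, 2 lower and 6 higher, and 1 gene was past 2-fold with that correction, with the GC correction or with TMM scaling. Asns, which makes asparagine with the amide nitrogen of glutamine, had 150 and 276 reads and was highest at 0.98 (0.69 to 1.28). Gfpt1, the entry enzyme of the hexosamine pathway, was lowest at -0.58 (-0.77 to -0.39). Cad, the multi-enzyme start of pyrimidine synthesis, had 1960 and 1820 reads and a value of 0.00 (-0.10 to 0.09), or 0.39 (0.30 to 0.48) after the length correction.

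Partners of Got1 and Got2 in the malate-aspartate shuttle (6 of 6 compared) had a median of 0.41, or 0.21 after the length correction, with 4 higher and 0 lower past the counting error. Mdh1, the cytosolic malate dehydrogenase, had 587 and 775 reads and was highest at 0.51 (0.35 to 0.66), or 0.38 (0.23 to 0.54) after the length correction. Mdh2, the mitochondrial one, had 2230 and 2748 reads and a value of 0.41 (0.32 to 0.49), or 0.19 (0.11 to 0.27) after the length correction. Slc25a13, an aspartate-glutamate carrier, had 7 and 6 reads and was not resolved. None of the 6 was past 2-fold.

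Enzymes of 2-oxoglutarate and 2-hydroxyglutarate (11 of 12 compared) had a median of 0.05, with 5 higher and 0 lower past the counting error. After the length correction the median was 0.09, with 3 higher and 1 lower. Ogdh, a subunit of the 2-oxoglutarate dehydrogenase complex, was lowest at -0.43 (-1.02 to 0.14) from 64 and 44 reads. Idh2, the mitochondrial relative of Idh1 and named after its value was seen, had 285 and 329 reads, with a log2 value of 0.31 (0.08 to 0.55), or, within the counting error after the length correction, 0.14 (-0.09 to 0.37).

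**Figure D5:**
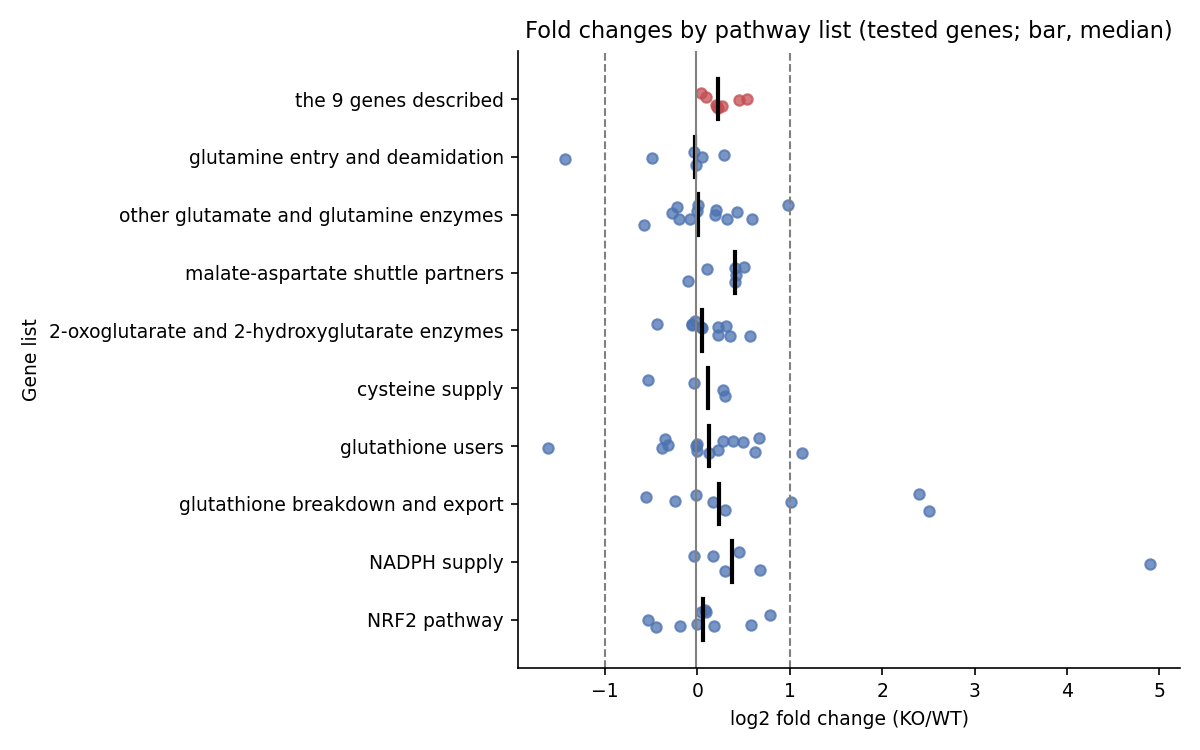
Log2 fold changes (KO over WT) of the tested genes in the 9 pathway lists (blue) and of the 8 tested among the 9 genes described (red). Each point is a gene, black bars are medians, the grey line is the median of all genes and dashed lines mark 2-fold. The points beyond 2-fold are few: Slc1a5 and Gstm5 on the low side and Hagh, Ggt1, Ggt5, Oplah and Nnt on the high side.

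Cysteine supply, which limits glutathione synthesis in many cells, was thinly covered (4 of 6 compared). The median was 0.12, or 0.00 after the length correction, with 1 lower and 1 higher past the counting error either way. Ahcy, adenosylhomocysteinase, had 3037 and 3419 reads, with a log2 value of 0.28 (0.20 to 0.35). Mat2a, methionine adenosyltransferase, was at -0.53 (-0.62 to -0.44) from 2519 and 1619 reads. Slc3a2, the heavy chain of the cystine exchanger, was at 0.30 (-0.21 to 0.83), and the exchanger's light chain Slc7a11, named after its value was seen, had 0 and 2 reads, under the floor of 3 reads in both libraries.

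Glutathione users (15 of 19 compared) had a median of 0.12, with 2 lower and 5 higher past the counting error. After the length correction the median was 0.05, with 3 lower and 3 higher, and with 5 added to each count none was past 2-fold. Hagh, glyoxalase II, had 14 and 29 reads, with a log2 value of 1.13 (0.19 to 2.19), or 0.88 (-0.06 to 1.94) after the length correction. Gstm5, a glutathione S-transferase, was lowest at -1.61 from 11 and 3 reads, with an interval (-4.25 to 0.15) that included 0, or -1.89 (-4.53 to -0.13) after the length correction. Gpx1, the abundant cytosolic glutathione peroxidase, had 2958 and 3214 reads and a value of 0.22 (0.15 to 0.30), or -0.04 (-0.11 to 0.03) after the length correction.

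Glutathione breakdown and export (8 of 9 compared) had a median of 0.23, with 4 higher and 2 lower past the counting error. In this list 3 genes were at least 2-fold higher, against 3.75% of all genes. The count was 2 with at least 10 reads in each library, with 5 added to each count or with the GC correction. After the length correction the median was 0.36, with 5 higher and 1 lower. Ggt5 and Ggt1 are γ-glutamyltransferases, which open extracellular glutathione. Ggt5 had 10 reads in WT and 51 in KO, a log2 fold change of 2.40 (1.46 to 3.60). Ggt1 had 3 and 18 reads, a ratio of 6.45 (1.88 to 34.2), and reached the minimum of 10 reads through its KO reads. Ggt1 (chr10:75561076-75586193) and Ggt5 (chr10:75589327-75617200) lie close together, so they may not be independent of each other. Oplah, which returns 5-oxoproline to glutamate, had 19 and 36 reads, at 1.01 (0.19 to 1.91). Ggct, which releases 5-oxoproline, went the other way at -0.55 (-1.11 to -0.02) from 76 and 48 reads, or -0.44 after the length correction, where the interval included 0. Cndp2, a dipeptidase, was the most abundant at 1564 and 1785 reads and 0.30 (0.20 to 0.39).

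NADPH supply, on which Gsr draws (6 of 7 compared), had a median of 0.38, or 0.31 after the length correction, with 5 higher and 0 lower past the counting error. Nnt, the mitochondrial transhydrogenase that makes NADPH from NADH, had 1 WT read and 41 KO reads, a ratio of 44.1 (7.48 to 1783). Nnt carries a loss-of-function deletion in the C57BL/6J substrain. The labels give the strain as C57BL/6 without a substrain, and its part in this difference was not tested. Me2, the mitochondrial malic enzyme, had 1717 and 1562 reads, with a log2 value of -0.03 (-0.13 to 0.07). G6pdx and Pgd, the oxidative enzymes of the pentose phosphate pathway and named after their values were seen, were at 0.45 (0.31 to 0.60) and 0.67 (0.55 to 0.79).

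The NRF2 pathway (10 of 12 compared) had a median of 0.06, or -0.09 after the length correction, with 2 higher and 0 lower past the counting error. Txn1, thioredoxin, had 2570 and 4125 reads and was highest at 0.79 (0.72 to 0.86), or 0.52 (0.45 to 0.59) after the length correction. Ftl1, the ferritin light chain, had 3878 and 5387 reads and a value of 0.58 (0.52 to 0.64), or 0.30 (0.24 to 0.36) after the length correction. Osgin1, an oxidative-stress growth inhibitor, was at -0.53 (-1.63 to 0.48) from 22 and 14 reads. Nfe2l2, which encodes NRF2 itself and was named after its value was seen, had 372 and 344 reads, at a log2 value of -0.01 (-0.22 to 0.21).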

How the data were processed

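Messenger RNA of Th17 cells was sequenced from 1 WT and 1 Trim28 KO culture. The deposited values are raw counts of unique reads per gene, per the file headers, made by the authors, who mapped reads to mm10 with SOAP2. The submitters' notes also list bcl2fastq, HTSeq, Bowtie and SICER 1.1 without a role. The counting program, the annotation, strand use and how a read was judged unique among genes and transcripts are not given in the sources used here, so paralogs, processed copies and overlapping genes are uncertain. Chromatin samples of the series were not analysed here.

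Counts were scaled to library totals and 0.5 was added to each. Intervals are exact (Clopper-Pearson for ratios, Poisson for levels, 95%) in SciPy 1.17.1, cover counting error only, and treat reads as independent molecules, which PCR duplicates are not. With 1 library per genotype no p-value was given. A gene was compared at 10 or more reads over both libraries. The floor was 3 reads (0.451 CPM in WT, 0.485 in KO). Symbols were matched to RefSeq GRCm38.p6 (12841 current, 804 older, 59 unmatched). Transcript lengths came from GENCODE M21 for 99.2% of the genes compared. Length and GC corrections used loess (statsmodels 0.14.6, span 0.3). Other scalings came from edgeR 4.0.16 (TMM), DESeq2 1.42.0 and the upper quartile of counts over genes with reads in both libraries. The interval calculation was tested on simulated data. Named genes were the 9 members, Trim28 and, from each list, every gene past 2-fold, the one with the most reads, and the lowest and highest fold change, except items that are not reported here. The 9 genes, the lists and the markers were chosen with earlier results of these data known, and the GC box and TATAAA searches, the ratios between members and the comparison by transcript number were added after the data were seen.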

Additional observations from a re-analysis of the deposited data

How the results depend on the processing

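No paired analysis was possible because each genotype has 1 library. No member passed 2-fold or reversed past its counting error under any setting run. TMM, DESeq2 or upper-quartile scaling moved the median of all genes by at most 0.025. The count of members higher past the counting error, 3 as reported, was 5 with the transcript length correction, 5 with the GC content correction, 4 with RefSeq lengths (added after seeing the data), 1 where libraries were assumed to vary with a coefficient of variation (CV) of 0.1, and 0 for both 0.2 and 0.4. Among all genes, 2511 were higher and 2182 lower past the counting error with the transcript length correction. With the GC content correction these were 2715 and 2476, each of 10792 genes. With RefSeq lengths they were 2484 and 2163 of 10822 genes. Past 2-fold, 864 of all genes were lower and 408 higher. These became 551 and 262 with 5 added to each count, 2012 and 1152 with no filter on reads, 406 and 195 with at least 10 reads in each library, and 1927 and 1170 at 1.5-fold. Past the counting error, 2720 genes were lower and 2559 higher, against 1599 and 1179 with a CV of 0.1, 698 and 337 with 0.2, and 158 and 74 with 0.4. With wider assumed spread, fewer intervals clear 0 by construction. The cause of the other shifts was not tested. Counting error limits Idh1 and Gpt2 most.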
